A study of Gallus gallus with 12 samples.

Results

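Livers of stages taken as having a maturing or laying ovary were compared with livers of stages taken as having an immature or regressed ovary. The state was inferred from the stage, as no examination of the ovaries was described. The first side held 6 livers, 3 at sexual maturity (SM, day 133) and 3 at peak laying (PL, day 220). The second side held 6 livers, 3 of the juvenile period (JP, day 60) and 3 of the broodiness period (BP, day 400), so that all 12 livers of the series were used. All birds were healthy female chickens of Luhua, a Chinese indigenous breed, each stage was sampled from 3 different hens, and no treatment was applied. RNA of whole liver was sequenced in strand-specific libraries, so that fewer cells of a type and less RNA per cell cannot be told apart in any difference below. Expression was given as FPKM, a fragment number corrected for transcript length and for the mapped total of each library, for 18260 mRNAs and 16930 long non-coding RNAs (lncRNAs).

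In the hen, the liver makes most of the egg yolk precursors, lipoproteins and vitellogenins that the blood carries to the growing follicles. Oestrogen from the ovary switches on this production as the bird comes into lay, and the ovary and the oviduct shrink when a hen turns broody and stops laying. A transcript following the ovarian state as assigned would be high at both stages of the first side and low at both of the second. The order could also be reversed, and in either case the age of the bird would not matter. The stages taken to have a maturing or laying ovary are also the 2 middle ages. Ovarian state and an intermediate age therefore cannot be told apart. The paper instead names SM and BP together as stages without egg production.

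Libraries differed between stages in a way that did not follow these sides. The mapped ratio of JP was close to that of PL, and the ratio of SM to that of BP. The summed FPKM of mRNAs lay between 408296 and 539529 for JP and PL (6 livers) and between 688208 and 772041 for SM and BP (6 livers). For lncRNAs the sums ran from 3106 to 3985 and from 7070 to 8583. The comparison was therefore built from a pair of differences, PL minus JP and SM minus BP, each taken between stages of similar mapped ratio. These share no liver. Their mean is the difference between the sides, and it was tested with limma in 1 fit over all 12 livers on log2(FPKM + 1), for 16703 mRNAs and 6254 lncRNAs with FPKM above 0.1 in at least 3 livers. A transcript was called when it changed at least 1.5-fold with a Benjamini-Hochberg adjusted p below 0.05, and concordant when it was called in the mean and both differences had the same sign.

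Few transcripts separated the sides in both pairs of stages. The mean difference was called for 624 mRNAs (3.74% of those tested), of which 318 were higher (1.90%) and 306 lower (1.83%) at SM and PL. Of these, 432 mRNAs were concordant (2.59%), 224 higher (1.34%) and 208 lower (1.25%) at SM and PL. In the remaining 192 called mRNAs, PL minus JP and SM minus BP had opposite signs, and PL minus JP was the larger in 182. Among lncRNAs, 22 were called (0.352%), 13 of them higher (0.208%) and 9 lower (0.144%), and 16 were concordant (0.256%), 9 higher (0.144%) and 7 lower (0.112%). At an unadjusted p under 0.05, limma gave 4104 mRNAs and 884 lncRNAs. When the libraries were scaled by median ratios, 232 mRNAs were concordant and higher and 290 were lower, and among lncRNAs the split turned from 9 higher and 7 lower to 8 higher and 11 lower. The mRNA nearest inside the limit had a mean difference of 0.70 and an adjusted p of 0.0497 in limma, and the nearest outside it a mean difference of -0.64 and an adjusted p of 0.0509. For lncRNAs these neighbours had mean differences of 0.67 (adjusted p = 0.0482) and -1.59 (adjusted p = 0.0577).

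The concordant lncRNAs depended on single livers. Their number was 5 without BP replicate 3, 7 without JP replicate 2, 8 without SM replicate 2, 9 without JP replicate 3 or SM replicate 3, 10 without JP replicate 1 and 32 without PL replicate 3. The number of concordant mRNAs ranged from 309 (without SM replicate 3) to 565 (without PL replicate 3). A model with 2 groups of 6 livers and a term for the pair of stages, which counts unlike differences in the 2 pairs as error, called 6 concordant mRNAs and 0 concordant lncRNAs in limma. Of the 20 concordant transcripts named below, ENSGALT00000031546 alone was called in it, and the adjusted p of the other 19 ran from 0.0998 to 0.39.

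Over all transcripts, the differences agreed in sign less often than they disagreed. Both had the same sign in 7429 of 16703 mRNAs (44.5%), both higher in 4478 (26.8%) and both lower in 2951 (17.7%), whereas 9119 (54.6%) had opposite signs. The largest group by sign was that of 6346 mRNAs lower at PL than at JP and higher at SM than at BP. In lncRNAs the share with the same sign was likewise 44.5% (2781 of 6254), with 1575 higher in both (25.2%) and 1206 lower in both (19.3%). Across mRNAs the Pearson correlation of PL minus JP with SM minus BP was -0.335 and Spearman's rho was -0.136. Across lncRNAs they were -0.095 and -0.101. These are descriptions across transcripts that share the same 12 livers, and transcripts are not independent replicates. After median-ratio scaling, 47.3% of mRNAs and 44.8% of lncRNAs had the same sign, with Pearson correlations of -0.328 and -0.0848.

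**Figure D1:**
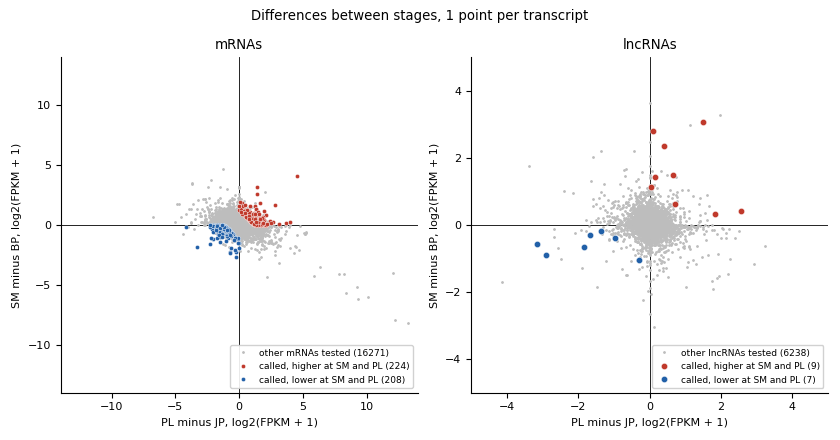
PL minus JP (x axis) against SM minus BP (y axis) on the log2(FPKM + 1) scale, 1 point per transcript tested, for mRNAs (left) and lncRNAs (right). The 224 mRNAs and 9 lncRNAs called higher at SM and PL (red) lie in the upper right and the 208 mRNAs and 7 lncRNAs called lower (blue) in the lower left, while the mRNAs with the largest PL minus JP lie in the lower right.

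Taken one at a time, the pair of differences called different transcripts. PL minus JP was called for 3197 mRNAs (19.1%), 1099 higher at PL (6.58%) and 2098 lower (12.6%), whereas SM minus BP was called for 194 mRNAs (1.16%), 117 higher at SM (0.700%) and 77 lower (0.461%). Only 3 mRNAs were called higher in both, which is 0.273% of those higher at PL and 2.56% of those higher at SM. Likewise 3 mRNAs were called lower in both (0.143% of 2098 and 3.9% of 77). The 6 mRNAs called in both in 1 direction made up 0.0359% of those tested, while 67 (0.401%) were called in both in opposite directions. For lncRNAs, 78 were called in PL minus JP (1.25%) and 84 in SM minus BP (1.34%), 0 in both in 1 direction and 5 in both in opposite directions (0.0799%). Scaling by median ratios turned the split of PL minus JP to 1635 mRNAs higher and 1617 lower, and that of SM minus BP to 76 higher and 96 lower. For lncRNAs it raised the number called in PL minus JP to 234 and lowered that in SM minus BP to 32. The number of mRNAs called in SM minus BP was 76 without SM replicate 3 and 103 without SM replicate 1 or SM replicate 2. It was 111 without BP replicate 2 and 425 without PL replicate 3.

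The number of concordant transcripts also fell when each difference had to be large. Both differences were at least 1.5-fold in 1 direction in 152 mRNAs (0.910%), 86 higher (0.515%) and 66 lower (0.395%), and in opposite directions in 551 (3.30%). For lncRNAs the numbers were 34 (0.544%; 20 higher, 0.320%, and 14 lower, 0.224%) and 58 (0.927%). Of the concordant transcripts, 50 mRNAs and 3 lncRNAs were at least 1.5-fold higher in each difference, and 35 mRNAs and 2 lncRNAs at least 1.5-fold lower.

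The mRNAs that were furthest above JP at PL were mostly lower at SM than at BP. At least 16-fold higher at PL than at JP on the log2(FPKM + 1) scale were 25 mRNAs, with a median difference of 5.25, and 24 of them were lower at SM than at BP. Their SM minus BP had a median of -2.08 and ran from -8.16 to 4.09. On the log2(FPKM + 1) scale their median level rose from 1.59 (JP) over 4.57 (SM) to 8.62 (PL) and was 7.20 for BP. The 1 exception was concordant and is described below. Of the 10 mRNAs at least 16-fold lower at SM than at BP, all were higher at PL than at JP. In the other direction the numbers were small and less one-sided, since of 9 mRNAs at least 16-fold lower at PL than at JP, 6 were higher and 3 lower at SM than at BP, and of 2 at least 16-fold higher at SM than at BP, 1 was higher and 1 lower at PL than at JP. At a limit of 4-fold, 89 of 105 mRNAs higher at PL than at JP were lower at SM than at BP, and 73 of 92 lower at PL were higher at SM. Of lncRNAs at this limit, 12 of 13 higher at PL than at JP were lower at SM than at BP, but 8 of 11 lower at PL were also lower at SM. These limits were set after the values were seen. Over all mRNAs tested, 54.6% had opposite signs, and SM was below BP in 34.6% and above it in 65.3%. PL was above JP in 43.5% of them. Over all lncRNAs tested, 50.5% had opposite signs, and SM was below BP in 44.4%.

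The difference between PL minus JP and SM minus BP was itself called for 2677 mRNAs (16.0%), 733 with the larger value in PL minus JP (4.39%) and 1944 with the larger value in SM minus BP (11.6%). After median-ratio scaling these were 1431 and 1372. The total was 1659 without PL replicate 2 and 4365 without PL replicate 3. For lncRNAs it was called for 112 (1.79%), 56 in each direction (0.895%). The lncRNA total was 60 without PL replicate 2, 69 without JP replicate 1, SM replicate 3 or BP replicate 3, 72 without PL replicate 1, 73 without BP replicate 2 and 181 without PL replicate 3. More mRNAs differed between the pairs of stages than were concordant, but the groups overlap and the limits act unequally on them. Of the concordant mRNAs, 96 of 224 higher and 121 of 208 lower were called in this difference too. Without the 1.5-fold limit, limma gave an adjusted p below 0.05 for 2768 mRNAs in this difference and 1195 in the mean. With the limit these were 2677 and 624.

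The 224 mRNAs higher at SM and PL drew mostly on low values at JP. JP was the lower of the 2 low stages in 192 of them and BP in 31. Over all mRNAs tested the median deviations were also lower at JP (-0.12, -0.04 and -0.11) than at BP (0.06, -0.01 and 0.11). How much of the counts came from this shift was not tested. SM was the higher of the high stages in 104 of the 224 and PL in 120. The median of PL minus JP over them was 1.14, against -0.04 over all mRNAs tested, and the median of SM minus BP was 0.38, against 0.08. By itself, PL minus JP was called for 184 of the 224 (called higher in 6.58% of all tested) and SM minus BP for 22 (0.700%). Both were called for 3 and neither for 21. In 33 of them the smaller of the differences was under 0.1, so that the sign of 1 pair of stages had little behind it. All were chosen on these values, and the counts only describe them.

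In the 208 mRNAs lower at SM and PL the low value was mostly that of PL. PL was the lower of the 2 low stages in 172 and SM in 36, whereas the higher of the high stages was JP in 109 and BP in 99. All mRNAs tested were shifted the same way, with median deviations of -0.29, -0.18 and -0.006 at PL and 0.10, 0.18 and 0.18 at SM. The part of this shift in the counts was not tested. Over the 208 the median PL minus JP was -1.20 and the median SM minus BP -0.25. Of the 208, 184 were called in PL minus JP by itself (called lower in 12.6% of all tested) and 18 in SM minus BP (0.461%). Both were called in 3 and neither in 9, and all had been chosen on these values. In 46 the smaller difference was under 0.1 in size. The mean of SM and BP was called above the mean of JP and PL in 75 of these 208 and in 58 of the 224 that were higher (19.4% of all mRNAs tested). It was called below in 16 and in 20 (2.75% of all). The part of the mapped ratio in these counts was not tested.

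**Figure D2:**
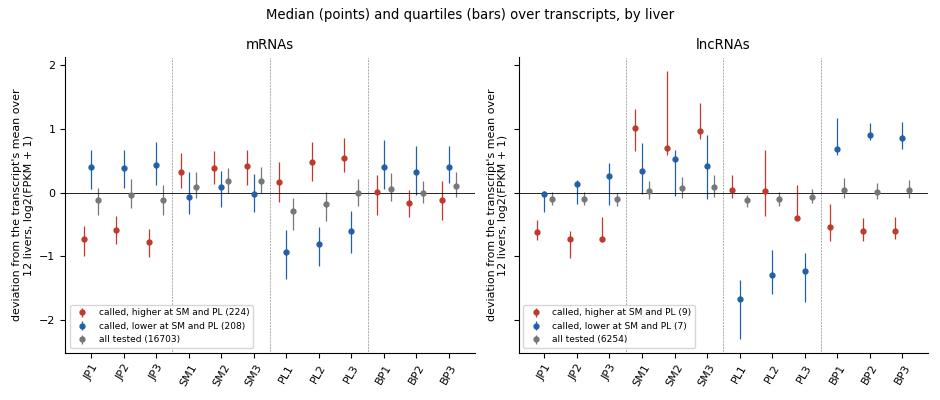
Deviation of each liver from a transcript's mean over the 12 livers (y axis, log2(FPKM + 1)) by liver (x axis), as the median (points) and quartiles (bars) over concordant transcripts higher at SM and PL (red), concordant transcripts lower at SM and PL (blue) and all transcripts tested (grey). For mRNAs the red medians lie between -0.77 and -0.58 at JP and between 0.18 and 0.54 at PL, and the blue medians between -0.94 and -0.60 at PL but between -0.06 and 0.08 at SM.

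The medians by liver showed the same unevenness. Over the 224 mRNAs that were higher, the median deviation was -0.73, -0.58 and -0.77 in the JP livers, 0.32, 0.38 and 0.42 in the SM livers, 0.18, 0.48 and 0.54 in the PL livers and 0.01, -0.17 and -0.11 in the BP livers. All livers of SM and PL lay above all of JP and BP, which largely follows from the choice of these mRNAs on the same livers. Over the 208 that were lower, it was 0.40, 0.39 and 0.43 in the JP livers, -0.06, 0.08 and -0.02 at SM, -0.94, -0.80 and -0.60 at PL and 0.40, 0.32 and 0.40 at BP. The SM livers thus stood nearer to the JP and BP livers than the PL livers did. The median of all mRNAs tested ran from -0.29 in PL replicate 1 to 0.18 in SM replicate 3.

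Concordant transcripts differed in abundance by direction. The median level over the 12 livers was 2.54 on the log2(FPKM + 1) scale for the 224 mRNAs that were higher and 4.31 for the 208 that were lower, against 1.97 for all mRNAs tested. The higher mRNAs made up 0.421%, 0.428% and 0.45% of the summed FPKM of mRNAs in the SM livers and 0.749%, 0.772% and 0.791% in the PL livers, against 0.204% to 0.274% in the 6 livers of JP and BP. The lower mRNAs made up 5.11% to 5.42% at SM and 2.26% to 2.88% at PL, against 5.84% to 7.37% in the 6 livers of JP and BP. These transcripts had been called on the same 12 livers, so that the separation of their shares largely follows from the choice and nothing is read from it. The 9 higher lncRNAs made up 0.441% to 0.61% of the summed FPKM of lncRNAs at SM and PL and 0.0461% to 0.114% at JP and BP. They too had been called on these livers, so nothing is read from this separation. For the 7 lower lncRNAs the sides overlapped, with 6.06% to 8.34% at SM, 1.22% to 1.75% at PL, 5.36% to 7.29% at JP and 9.55% to 12.8% at BP.

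**Figure D3:**
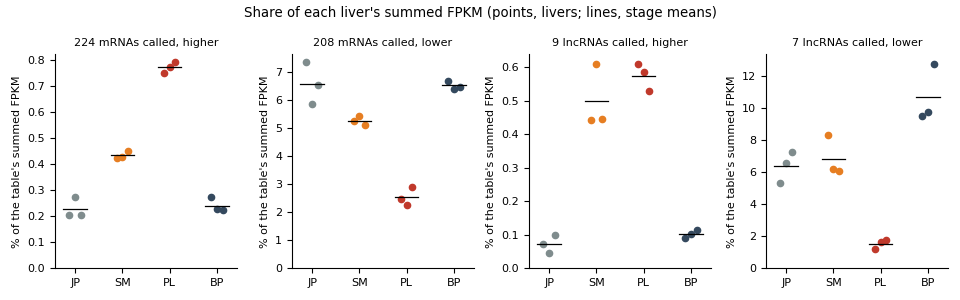
Share of a liver's summed FPKM (y axis, percent) carried by the concordant transcripts of each table and direction, by stage (x axis), with 1 point per liver and a line at the stage mean. The transcripts were chosen on these livers, which largely sets the order of the sides. Between the stages of a side, the shares of the 208 lower mRNAs are smaller at PL than at SM, and those of the 7 lower lncRNAs are small at PL but not at SM.

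Within stages the spread was somewhat larger over the concordant mRNAs than over all mRNAs tested, which include them. The sets were not matched for level. The median level was 2.54 and 4.31 for the higher and lower mRNAs against 1.97 for all tested, and log2(FPKM + 1) compresses low values. The median SD between livers of a stage was 0.289 on the log2(FPKM + 1) scale for those that were higher and 0.255 for those that were lower, against 0.222 over all mRNAs tested. In 34 of the 224 all 6 livers of SM and PL lay above all 6 of JP and BP, as did 63 of all mRNAs tested (0.377%). In 20 of the 208 all 6 lay below, as did 48 of all tested (0.287%). Since the concordant mRNAs had been called on the same livers, nothing is read from these counts.

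The tables used here do not pair the Ensembl transcripts of the mRNA table with gene symbols, so that 0 of the 18260 mRNAs were named and neither yolk protein genes nor markers of hepatocytes, blood or other cell types were looked up. Transcripts were ranked by the smaller of the 2 differences among concordant transcripts whose livers did not overlap within either pair of stages and whose differences were each at least 1.5-fold. Livers did not overlap in either pair in 2.52% of all mRNAs tested. The rule left 35 mRNAs higher and 23 lower, and the first 2 of each direction are given by their identifiers, together with the 2 higher and 2 lower lncRNAs that met the rule.

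ENSGALT00000065772 was the highest-ranked mRNA and the 1 exception among those at least 16-fold higher at PL than at JP. Its FPKM was 14.0, 16.4 and 0 in the JP livers, 177, 169 and 216 at SM, 125, 121 and 200.4 at PL and 53.0, 1.25 and 9.85 at BP. All livers of SM and PL thus lay above all of JP and BP, and JP replicate 3 was listed at 0. The mean difference on the log2(FPKM + 1) scale was 4.30 (SE 0.778, limma adjusted p = 0.0103). PL minus JP was 4.51 (SE 1.10, adjusted p = 0.0119) and SM minus BP was 4.09 (SE 1.10, adjusted p = 0.104). The difference between them was 0.42 (SE 1.56, adjusted p = 0.886). Without JP replicate 3 the mean difference was 3.64, and it was called without each liver in turn.

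ENSGALT00000071871 had FPKM of 3.75, 3.33 and 0 at JP, 8.65, 11.5 and 12.3 at SM, 12.6, 19.8 and 26.0 at PL and 0, 5.64 and 7.02 at BP. The sides did not overlap, and 1 liver of JP and 1 of BP were listed at 0. The mean difference was 2.24 on the log2(FPKM + 1) scale (SE 0.515, limma adjusted p = 0.0243). PL minus JP was 2.85 (SE 0.728, adjusted p = 0.0152) and SM minus BP was 1.64 (SE 0.728, adjusted p = 0.338). By itself only PL minus JP was called. The call in the mean was lost without JP replicate 3, SM replicate 2, SM replicate 3 or PL replicate 2. Its limma adjusted p ran from 0.023 to 0.0578 over the fits without 1 liver. With 0.1 added in place of 1 the call was lost as well (adjusted p = 0.0726).

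ENSGALT00000031546 was the mRNA most lowered in both pairs by this rule. Its FPKM was 204, 225 and 199 in the JP livers, 21.3, 15.2 and 13.6 at SM, 17.6, 15.5 and 31.0 at PL and 137, 49.7 and 35.9 at BP. The 3 JP livers lay close together, SM and PL overlapped each other, and BP lay between them and JP. The mean difference was -2.58 on the log2(FPKM + 1) scale (SE 0.284, limma adjusted p = 0.00109). PL minus JP was -3.29 (SE 0.402, adjusted p = 0.000284) and SM minus BP was -1.87 (SE 0.402, adjusted p = 0.0456), so that each was called by itself. It was called in the mean without each liver in turn, with mean differences from -2.78 to -2.30.

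ENSGALT00000057920 had FPKM of 0.866, 8.50 and 6.94 at JP, 0.104, 0.0433 and 0.468 at SM, 0.0191, 0.0525 and 0.166 at PL and 2.97, 5.09 and 0.754 at BP. The sides did not overlap, although the lowest JP and BP livers came near the highest SM liver. The mean difference was -1.91 on the log2(FPKM + 1) scale (SE 0.385, limma adjusted p = 0.0155). PL minus JP was -2.27 (SE 0.545, adjusted p = 0.0111) and SM minus BP was -1.55 (SE 0.545, adjusted p = 0.219). By itself only PL minus JP was called.

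The other 5 mRNAs called in both pairs of stages were not all extreme at the same side. The 3 that were higher at SM and PL had mean differences of 0.69, 0.81 and 2.30, and in each the means of SM and PL both lay above the means of JP and BP. Of the 3 that were lower, 2 had their SM mean above their JP mean, with SM at 5.65 and 5.24 and JP at 3.97 and 4.42 on the log2(FPKM + 1) scale. In these the mean of SM and BP exceeded that of JP and PL by 3.29 and 2.46, which is more than their mean differences of -1.61 and -1.65 in size. Among all concordant mRNAs the means of SM and PL both lay beyond the means of JP and BP in 177 of 224 that were higher (10.9% of all mRNAs tested were so ordered) and 140 of 208 that were lower (7.05%).

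**Figure D4:**
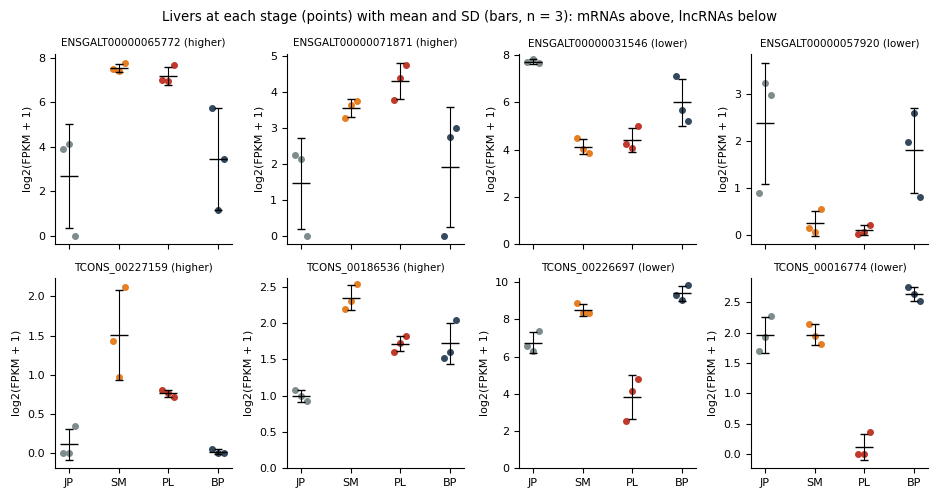
Level of the 4 mRNAs (upper row) and 4 lncRNAs (lower row) ranked first by the smaller of both differences, on the log2(FPKM + 1) scale (y axis), by stage (x axis), with 1 point per liver and the mean and SD of 3 livers. The 4 mRNAs and TCONS_00227159 separate all SM and PL livers from all JP and BP livers, whereas the other 3 lncRNAs separate them only within PL and JP and within SM and BP.

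The lncRNAs TCONS_00227159 and TCONS_00186536 met the rule in the upward direction. TCONS_00227159 had FPKM of 0, 0 and 0.266 at JP, 1.69, 0.963 and 3.34 at SM, 0.743, 0.698 and 0.649 at PL and 0.0417, 0 and 0 at BP. It was listed at 0 in 4 of the 6 livers of JP and BP and in none of SM and PL. Its mean difference was 1.07 on the log2(FPKM + 1) scale (SE 0.161, limma adjusted p = 0.0128), with 0.65 (SE 0.227, adjusted p = 0.205) for PL minus JP and 1.49 (SE 0.227, adjusted p = 0.00631) for SM minus BP. Without BP replicate 3 the adjusted p was 0.0517, the highest of the fits without 1 liver. TCONS_00186536 had FPKM of 1.12, 0.993 and 0.892 at JP, 3.58, 3.94 and 4.78 at SM, 2.05, 2.30 and 2.53 at PL and 1.86, 2.03 and 3.11 at BP. PL and BP overlapped. Neither PL minus JP (0.72, SE 0.189, limma adjusted p = 0.0842) nor SM minus BP (0.63, SE 0.189, adjusted p = 0.1245) was called by itself. The mean difference of 0.67 (SE 0.134, limma adjusted p = 0.0482) was equal within rounding to the difference of SM and BP from JP and PL. The call in the mean was lost in 11 of the 12 fits without 1 liver, all but that without PL replicate 3, with adjusted p up to 0.122. Among lncRNAs with FPKM above 0.1 in at least 1 liver its adjusted p was 0.107.

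The lncRNAs TCONS_00226697 and TCONS_00016774 met it in the downward direction. TCONS_00226697, an abundant lncRNA, had FPKM of 93.7, 76.9 and 167 at JP, 469, 319 and 323 at SM, 4.86, 16.8 and 27.3 at PL and 645, 526 and 915 at BP. SM lay below BP and PL below JP, but SM lay above JP. PL minus JP was -2.90 (SE 0.4845, limma adjusted p = 0.0134) and SM minus BP -0.89 (SE 0.4845, adjusted p = 0.434), so that only PL minus JP was called by itself. The mean difference was -1.90 on the log2(FPKM + 1) scale (SE 0.343, limma adjusted p = 0.0312), and SM and BP exceeded JP and PL by 3.66 (SE 0.343). The call was lost in 8 of the 12 fits without 1 liver (those without JP replicates 1, 2 and 3, SM replicates 2 and 3, PL replicate 2 and BP replicates 2 and 3), with adjusted p from 0.00614 to 0.087, and among lncRNAs with FPKM above 0.1 in at least 1 liver (adjusted p = 0.0518). TCONS_00016774 had FPKM of 2.23, 2.80 and 3.84 at JP, 3.42, 2.84 and 2.51 at SM, 0, 0 and 0.29 at PL and 5.71, 5.21 and 4.75 at BP. JP and SM overlapped, and 2 PL livers were listed at 0. Its mean difference was -1.25 (SE 0.142, limma adjusted p = 0.00278), with -1.84 (SE 0.201, adjusted p = 0.00107) for PL minus JP and -0.67 (SE 0.201, adjusted p = 0.123) for SM minus BP, and it was called without each liver in turn.

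Primers for quantitative PCR (qPCR) had been designed for 5 of the lncRNAs tested, of which TCONS_00037924 was concordant and TCONS_00155619 was called in opposite directions in the pairs of stages. The primers of both are shown as those of the study's qPCR, and none of the FPKM values here rest on them. They come from the primer list of the study and are written 5′ to 3′ in lower case, with no base marked.
TCONS_00037924 forward: ttaacaagaagggaaatgtggactg
TCONS_00037924 reverse: caattccttttgtttcctcttctga
TCONS_00155619 forward: catcaactccagccttcctctgc
TCONS_00155619 reverse: cagcctgcggatacttccaagtc

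TCONS_00037924 had FPKM of 29.4, 76.5 and 25.3 at JP, 6.92, 6.45 and 7.21 at SM, 1.05, 5.88 and 5.25 at PL and 10.7, 9.19 and 11.9 at BP. All livers of SM and PL lay below all of JP and BP. Its mean difference was -1.85 on the log2(FPKM + 1) scale (SE 0.34, limma adjusted p = 0.0336), of which PL minus JP gave -3.15 (SE 0.481, adjusted p = 0.00798) and SM minus BP -0.55 (SE 0.481, adjusted p = 0.661). The SE was pooled over stages of unlike spread, with SDs of 0.846 at JP and 0.971 at PL against 0.0709 at SM and 0.171 at BP. The adjusted p of SM minus BP therefore does not measure the spread of SM and BP alone. The call was lost in 8 of the 12 fits without 1 liver (those without JP replicates 1 and 2 and without each SM or BP replicate), with adjusted p from 0.0188 to 0.0882, and among lncRNAs with FPKM above 0.1 in at least 1 liver (adjusted p = 0.0622). Its SM minus BP did not reach 1.5-fold.

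TCONS_00155619 had FPKM of 0.196, 0.03 and 0.0377 at JP, 0.0339, 0.598 and 0.153 at SM, 3.61, 2.72 and 6.03 at PL and 1.66, 3.33 and 2.45 at BP. PL lay above JP and SM below BP, with no overlap in either pair. PL minus JP was 2.19 on the log2(FPKM + 1) scale (SE 0.259, limma adjusted p = 0.0016) and SM minus BP -1.46 (SE 0.259, adjusted p = 0.0121). They differed by 3.65 (SE 0.366, adjusted p = 0.000784), and their mean of 0.36 was not called (adjusted p = 0.399). The other 3 lncRNAs with qPCR primers, TCONS_00220501, TCONS_00179354 and TCONS_00083873, had estimates of opposite sign, with PL minus JP of 1.78, 2.92 and 2.21 and SM minus BP of -1.91, -1.15 and -0.11. SM minus BP was not called for any of them (SE 1.43, 0.365 and 0.421, limma adjusted p = 0.603, 0.142 and 0.94). In TCONS_00220501 PL minus JP was not called either (adjusted p = 0.684), and FPKM was 0 in all SM livers and 52.4, 0 and 0 at BP. The signs of TCONS_00220501 and the SM minus BP sign of TCONS_00083873 thus had little behind them. For TCONS_00179354 the difference between the pairs was called (4.07, SE 0.516, limma adjusted p = 0.00306).

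Of the 9 lncRNAs that were higher, 4 carry close identifiers and were high mainly at SM. These are TCONS_00062741, TCONS_00062745, TCONS_00062746 and TCONS_00062777, named after their values were seen. Their FPKM at SM was 5.90, 17.3 and 4.24, then 6.09, 5.22 and 6.60, then 2.35, 2.22 and 1.09, and 2.81, 7.10 and 3.46. At BP no liver exceeded 0.131 in any of them. At PL TCONS_00062741 had FPKM of 4.59, 4.63 and 0, while TCONS_00062745 was listed at 0 in 2 livers and at 0.228 in PL replicate 3, and in all livers of JP and BP it was listed at 0. TCONS_00062745 had the smallest adjusted p of the 4 (1.33e-05 in limma, mean difference 1.45, SE 0.0878), but PL minus JP was only 0.10 (SE 0.124, adjusted p = 0.842), and without PL replicate 3 it no longer counted as concordant. Its SE drew in part on JP and BP, where the SD was 0 because every liver was listed at 0. The 15 lncRNAs of the table with identifiers in this range did not all move in 1 direction. Higher at SM than at BP were 11 of them (55.0% of all lncRNAs tested), and 5 were called so. Among these 5 were the 4 concordant ones, whose identifiers set the range. Over all lncRNAs tested, SM minus BP was called in either direction in 1.34%, with 51 lncRNAs higher at SM and 33 lower. Higher in both differences were 5 of the 15 (25.2% of all), again among them the 4 concordant ones. These counts rest in part on the choice of these 4, so nothing is read from them.

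For 3 of these 4 the difference between the pairs of stages was called as well (TCONS_00062745, TCONS_00062746 and TCONS_00062777). It was called for 5 of the 9 higher and for 0 of the 7 lower lncRNAs (1.79% of all tested), which had been chosen on these same values, so that the counts only describe them. The call of TCONS_00062741 was lost in 11 of the 12 fits without 1 liver, all but that without PL replicate 3, where its adjusted p was 0.000851 in limma. It was also lost after median-ratio scaling (adjusted p = 0.0708) and among lncRNAs with FPKM above 0.1 in at least 1 liver (adjusted p = 0.065). Near-identical transcripts of 1 locus share reads, and how StringTie divided these among close identifiers was not tested.

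The other concordant lncRNAs were mostly high or low at 1 stage. TCONS_00168923 was high at PL, with FPKM of 5.92, 5.77 and 12.4, and at most 1.63 in any other liver. TCONS_00158845 was high at SM, with 1.68, 1.16 and 1.59, and at most 0.389 elsewhere, and its PL minus JP was 0.04 (limma adjusted p = 0.996). TCONS_00223646 was low at JP, with 0.671 to 0.849, against 4.11 to 8.44 in the other 9 livers. TCONS_00128285 was high at BP, with 0.963, 1.23 and 0.983, and was at most 0.0619 in any liver of SM or PL, so that the sides did not overlap. TCONS_00016949, TCONS_00001219 and TCONS_00228617 had their lowest values at PL and their highest at BP. Their SM means lay above their JP means, and their SM minus BP was -0.30, -0.19 and -0.37 (limma adjusted p = 0.656, 0.746 and 0.352). In them SM and BP exceeded JP and PL by 2.195, 1.36 and 1.22 on the log2(FPKM + 1) scale, more than their mean differences in size. These 7 were named after their values were seen, to account for every concordant lncRNA. Of the 12 fits without 1 liver, the call was lost in 0 for TCONS_00223646, in 1 for TCONS_00128285 (without JP replicate 3), in 5 for TCONS_00168923, in 9 for TCONS_00158845 and in 10 for each of the last 3, with limma adjusted p of at most 0.0951. The call of TCONS_00158845 was also lost after median-ratio scaling (adjusted p = 0.0668) and with 0.1 added in place of 1 (adjusted p = 0.0986), and those of TCONS_00016949 and TCONS_00001219 among lncRNAs with FPKM above 0.1 in at least 1 liver (adjusted p = 0.072 and 0.0544).

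Time-course profiles and co-expression modules of lncRNAs had been built from these same livers, so that membership in them is no independent evidence. Of the 16 concordant lncRNAs, 7 were in a profile, 3 of them (TCONS_00001219, TCONS_00016774 and TCONS_00228617) in profile 48, in which 66 of 98 lncRNAs tested had both differences in 1 direction against 44.5% of all tested. In profile 28, with 2 of the 16, this held for 45 of 133, and in module 3 for 28 of 73. A module held 8 of the 16. Module 3 held 6 of the 9 higher lncRNAs, the 4 with close identifiers, TCONS_00158845 and TCONS_00227159. Of the 6254 lncRNAs tested, 221 were in module 1, 89 in module 2 and 73 in module 3. The study built its modules from differentially expressed transcripts alone, which favours called lncRNAs, so nothing is read from these counts. Over the 73 lncRNAs of module 3 that were tested, the median of PL minus JP was 0 and that of SM minus BP was 0.45, against 0 and 0.02 over all lncRNAs tested.

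**Figure D5:**
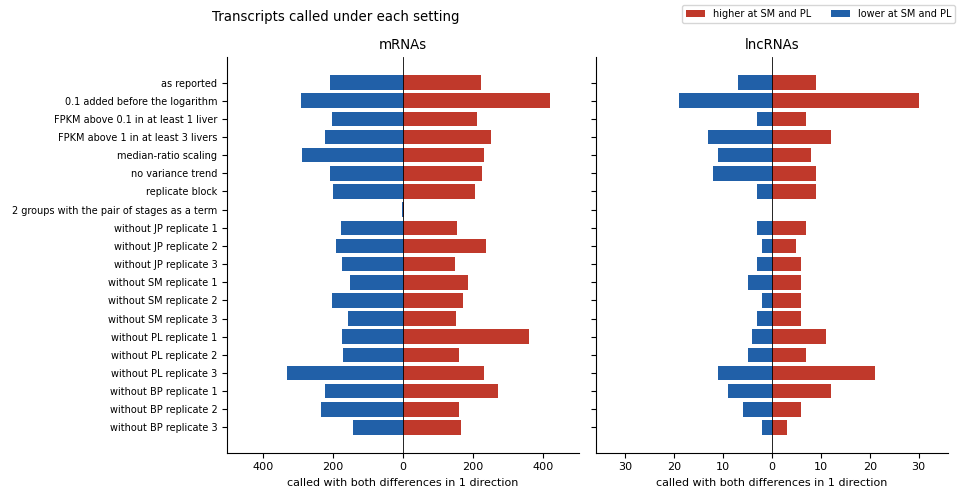
Number of concordant transcripts (x axis) higher (red, to the right) and lower (blue, to the left) at SM and PL under each setting (y axis), for mRNAs (left) and lncRNAs (right). The mRNA counts were 224 and 208 as reported, 361 and 175 without PL replicate 1, 232 and 333 without PL replicate 3 and 3 and 3 in the model with 2 groups.

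The balance of directions moved with single livers. Without PL replicate 1, 361 mRNAs were concordant and higher and 175 were lower, and without PL replicate 3, 232 were higher and 333 lower. Without BP replicate 2 there were 160 higher and 236 lower, and without PL replicate 2 there were 159 and 173. Of the 432 concordant mRNAs, 379 were again concordant without PL replicate 1, 371 without PL replicate 3 and 380 after median-ratio scaling. The median-ratio factors of PL livers ran from 0.685 in PL replicate 1 to 1.04 in PL replicate 3, and their part in these counts was not tested.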

How the data were processed

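Strand-specific, ribosomal RNA-depleted libraries of 12 livers were mapped by the authors to the chicken genome (Gallus_gallus-5.0) with HISAT2 2.1.0, and transcripts were assembled and quantified with StringTie 1.3.3. The authors deposited FPKM values without pooling, 1 table of 18260 mRNAs and 1 of 16930 lncRNAs. All value columns matched a liver (0 were left out). FPKM carries no read counts, so no count model, counting interval or detection limit was used, and each value depends on its library's mapped total.

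FPKM was taken as log2(FPKM + 1), on which fold changes of low transcripts are understated. Transcripts that exceeded an FPKM of 0.1 in 3 or more livers were fitted in limma 3.58.1 (R 4.3.3), mRNAs and lncRNAs apart, with 4 stage means, 8 residual degrees of freedom and a variance trend. Spread was estimated for each transcript over all 4 stages, so an SE also draws on stages outside its difference. Each contrast was adjusted for multiple testing (Benjamini-Hochberg) over all transcripts tested. Values were summarised and drawn in Python 3.11.15 with numpy 2.4.6, pandas 2.3.3 and matplotlib 3.10.9. The fit was also run on simulated data with equal spread in all stages and no shift between libraries. That run therefore cannot show how unequal spread or such shifts affect the calls here.

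Transcripts to name were those concordant with each difference at least 1.5-fold and livers not overlapping in either pair of stages, ranked by the smaller difference (2 mRNAs and up to 4 lncRNAs a direction), and the 5 lncRNAs of the study's qPCR. Members and lists were chosen with earlier results of these data known. Alternatives were an added value of 0.1, FPKM above 0.1 in at least 1 liver, an FPKM minimum of 1 in 3 livers, scaling by median ratios, no trend, the replicate number as a block, 2 groups with a term for the pair of stages, stricter rules of agreement and fits without each liver. The share of transcripts with the same sign under the same settings was an alternative chosen after seeing the data. Lists of gene symbols drawn up for yolk, lipid and cell type genes were not used, because no symbol could be matched.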

Additional observations from a re-analysis of the deposited data

Results flagged for a closer look

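Among the 24 transcripts looked at by liver, 8 of 48 groups of 6 livers (SM and PL, or JP and BP) held a liver set apart by Dixon's test. Chance alone gives this in about 1 in 20 groups when all values come from 1 population. Here each group pooled different stages, several values were listed at 0 and most of the transcripts had been chosen on these livers. Nothing is therefore read from the number of groups. Far above the other livers of JP and BP were JP replicate 3 in TCONS_00227159 (FPKM 0.266) and TCONS_00168923 (1.63), JP replicate 1 in TCONS_00062741 (0.425) and TCONS_00062777 (0.271), and BP replicate 1 in TCONS_00158845 (0.389) and TCONS_00062746 (0.131). SM replicate 3 lay above the other livers of SM and PL in ENSGALT00000057920 (0.468), and PL replicate 1 lay below them in TCONS_00037924 (1.05).

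PL minus JP and SM minus BP differed, by limma's test of their difference, in 2677 mRNAs and 112 lncRNAs. Among the 24 transcripts 7 were so called. PL minus JP was the larger in TCONS_00179354 (by 4.07 on the log2(FPKM + 1) scale), TCONS_00155619 (3.65) and TCONS_00223646 (1.51). SM minus BP was the larger in TCONS_00062745 (difference -2.70), TCONS_00062777 (-1.94), TCONS_00062746 (-1.29) and TCONS_00158845 (-1.09).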

How the results depend on the processing

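FPKM values without counts limit what can be said of low transcripts, and with 3 livers a stage single livers moved many calls. Concordant mRNAs numbered 713 with 0.1 added in place of 1, 85 when each difference had to be 1.5-fold, 6 when each had to be called and 6 in the model of 2 groups. Without 1 liver they ranged from 309 to 565. Concordant lncRNAs numbered 49 with 0.1 added, 10 with FPKM above 0.1 in at least 1 liver, 25 with FPKM above 1 in at least 3 livers, 5 when each difference had to be 1.5-fold, and 0 when each had to be called or in the model of 2 groups. Without 1 liver they ranged from 5 to 32.

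Calls in PL minus JP ranged from 2245 to 4140 mRNAs and from 42 to 143 lncRNAs without 1 liver, those in SM minus BP from 76 to 425 and from 54 to 96, and those in the difference between the pairs from 1659 to 4365 and from 60 to 181. The livers left out included those of stages outside a difference, since all stages shared 1 estimate of the spread. With 0.1 added, lncRNAs called were 239 in PL minus JP, 141 in SM minus BP and 247 in the difference between the pairs. The difference was called for 73 lncRNAs with FPKM above 0.1 in at least 1 liver, and SM minus BP for 42 with an FPKM minimum of 1. Scaling by median ratios gave 234 lncRNAs in PL minus JP and 32 in SM minus BP.

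The replicate numbers did not pair the livers, since deviations of livers with the same number correlated between -0.11 and 0.0868. With the replicate number as a block, 42 lncRNAs were called in PL minus JP and 74 in the difference between the pairs, 405 mRNAs and 12 lncRNAs were concordant, and 390 and 11 of these were shared with the fit without it. The block ended the calls of TCONS_00186536, TCONS_00228617, TCONS_00016949, TCONS_00001219 and TCONS_00037924 (limma adjusted p = 0.0743, 0.0743, 0.0738, 0.0631 and 0.0504).

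The share with the same sign was 43.6% of mRNAs and 37.5% of lncRNAs with FPKM above 0.1 in at least 1 liver, 47.3% of mRNAs after median-ratio scaling and 43.3% with FPKM above 1 in at least 3 livers. Without 1 liver it ranged from 40.3% to 47.4% in mRNAs and from 41.8% to 46.7% in lncRNAs. Of the single transcripts, the mean difference of TCONS_00220501, which was not called, turned from -0.068 to 0.12 after median-ratio scaling and ranged from -0.80 to 0.89 without 1 liver, above 0 without JP replicate 1 (0.26), JP replicate 2 (0.34), PL replicate 1 (0.0029) or BP replicate 1 (0.89). No other single transcript turned its direction, and 324 of 454 recomputed mean differences kept their direction and side of the threshold, while 123 kept their direction and lost the call. The other 2 gained it, those of TCONS_00179354 (1.18) and TCONS_00083873 (1.35) without PL replicate 3, both with opposite signs in the pairs of stages. The cause of these changes was not tested.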
